A study of Cucumis sativus with 4 samples.

Results

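Among 20000 genes measured in young cucumber fruits, 66 were at least 2-fold higher in the long-fruited line 408 than in the short-fruited line 409 and nearly level between the replicates of each line. The genes were chosen by their RPM in all 4 libraries, where RPM counts the reads of a gene for every 1000000 reads of the listed genes and is not divided by gene length. The lower of the 408 values had to reach 10 RPM and 2 times the higher of the 409 values. The larger replicate value could exceed the smaller by at most 25% in each line, both 409 values were above 0, and the mean over the libraries was under 500 RPM. The difference between the lines and the size of the replicate spread therefore describe how the genes were picked, and no test of them is drawn on. The sign of the replicate differences and the places of the genes along the chromosomes were not part of the choice.

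Lines 408 and 409 are near-isogenic cucumber (Cucumis sativus) lines grown under greenhouse conditions at the same station. The labels name no treatment and no allele that separates the lines. Each line gave 2 libraries, each from a pool of 3 to 5 fruits 2 to 4 cm in size that came from different plants and were picked on the same day. A difference between the lines at this size cannot be told apart from a difference in growth stage, and fewer cells of a type cannot be told apart from less RNA per cell. Fruit markers could not be read, because the table gives gene IDs that none of the sources used here pairs with names.

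Near-isogenic lines share most of their genome and differ in chromosome segments, often kept from a donor parent. An expression difference between them can lie in such a segment or arise elsewhere in the genome as a consequence of it. A young cucumber fruit grows first mainly by cell division and then by cell expansion along its axis, in which cortical microtubules guide the laying down of cellulose.

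The libraries held an estimated 12256000 to 13808000 reads of listed genes. The libraries of a line were not interchangeable. Over the 17391 genes tested, which reached 1 RPM in 2 or more libraries, the absolute log2 difference between the lines had a median of 0.34 for the replicate 1 libraries and 0.64 for the replicate 2 libraries. Of these genes, 2981 were higher in 408 and 1757 lower by limma with Benjamini-Hochberg adjustment, at an adjusted p under 0.05, so that 17.1% of tested genes were called higher. After quantile normalization the median log2 fold change of all tested genes moved from 0.06 to -0.07, and 2711 genes were called higher and 2709 lower.

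Few genes that were set apart between the lines were also level within them. The limits on abundance and on the 2-fold difference were met by 860 genes. The replicates stayed within 25% in line 408 for 212 of the 860 genes, or 24.7%, and in line 409 for 119, or 13.8%. Both conditions held for the 66 members, or 7.67%. The same rule with the lines exchanged, called the mirrored choice here, left 35 of 378 genes, or 9.26%. There the replicates stayed within 25% in line 409 for 69.3% of the genes and in line 408 for 14.3%. In both directions the replicates of the line with the lower level were less often within the limit.

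The genes just outside the limits had values close to those of the members just inside. The member nearest to the 2-fold limit measured 18.6 and 19.6 RPM in 408 and 9.3 and 8.8 RPM in 409. The nearest gene left out, at a ratio of 1.98, measured 37.7 and 47.1 RPM in 408 and 19.0 and 18.9 RPM in 409. The member nearest to the limit of 10 RPM had 10.0 RPM as its lower 408 value, and the nearest gene left out had 9.7 RPM. The nearest gene left out for its replicates had a ratio of 1.254 within a line. The limit on the mean alone left out 0 genes, and the highest mean among the members was 441.9 RPM.

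Most members were of moderate abundance. In 408 replicate 1 they ran from 10.0 to 574.9 RPM with a median of 25.3 RPM, and in 408 replicate 2 from 10.1 to 710.9 RPM with a median of 30.9 RPM. In 409 replicate 1 they ran from 2.6 to 265.8 RPM with a median of 11.2 RPM, and in 409 replicate 2 from 3.0 to 216.0 RPM with a median of 10.2 RPM. Both 408 values of each member lay above both 409 values, as the choice required, an order that 41.8% of all tested genes had. The 66 genes summed to 0.393% and 0.446% of all RPM in the libraries of line 408. In those of line 409 they summed to 0.161% and 0.150%. The mean over the libraries was below 10 RPM for 13 genes, from 10 to below 20 RPM for 21, from 20 to below 50 RPM for 17, from 50 to below 100 RPM for 8 and at least 100 RPM for 7.

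**Figure D1:**
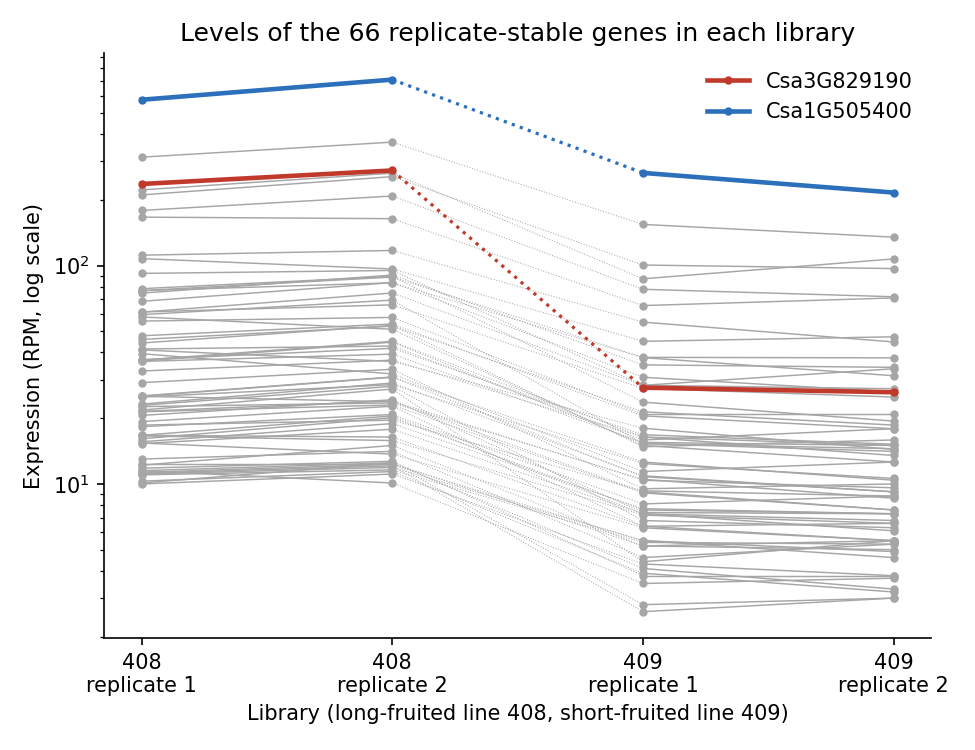
RPM (log scale) of each of the 66 genes in the 4 libraries; each grey path is 1 gene, and the genes with the largest ratio between the lines (Csa3G829190) and the highest mean (Csa1G505400) are coloured. Most paths fall by a similar step from 408 to 409, and Csa3G829190 falls from 236.5 and 272.7 RPM to 27.6 and 26.3 RPM.

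Most members also lay close to the 2-fold limit. The nearest ratio, which is the lower 408 value over the higher 409 value, had a median of 2.27 over the 66 genes and an interquartile range of 2.08 to 2.63. It was below 2.2 for 28 genes, from 2.2 to below 2.5 for 19, from 2.5 to below 3 for 9, from 3 to below 4 for 9 and at least 4 for 1. The farthest ratio, which is the higher 408 value over the lower 409 value, ran from 2.19 to 10.4 with a median of 2.89. The ratio of the line means had a median of 2.54 and an interquartile range of 2.37 to 2.99. On the log2(RPM + 1) scale, which understates the change of low genes, the median log2 fold change was 1.27 for the members and 0.06 for all tested genes.

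All 66 members were among the tested genes, and limma called all 66 higher in 408, each at an adjusted p of 0.0317, where it called 17.1% of the tested genes. The choice used this contrast, so the count adds nothing to it. The number called changed with the fit, for all genes as for the members. Without a filter on low values limma called 0 of all genes and 0 members. With the replicate number as a block it called 1356 genes and 41 members, Csa3G829190 among them and Csa1G505400 not. In the 4 fits that left out 1 library, the median log2 fold change of the members ran from 1.23 to 1.36. In such fits the single library left in a line is taken to vary as much as the pair of the other line.

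One gene stood far from the others. Csa3G829190 measured 236.5 and 272.7 RPM in the 408 libraries, against 27.6 and 26.3 RPM in those of 409. Its lower 408 value was 8.57 times its higher 409 value, whereas the next member reached 3.96. The mean was 255 ± 25.6 RPM for 408 and 27.0 ± 0.919 RPM for 409 (SD, 2 libraries each), a ratio of 9.45. The log2 fold change was 3.19 and ran from 3.09 to 3.29 when any 1 library was left out. It was 3.12 after median-of-ratios scaling and 3.14 after quantile normalization. The function of Csa3G829190 is not given, since its ID was paired with no gene name.

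Level replicates were rare among genes as far apart as Csa3G829190. The nearest ratio was at least 8 in 23 genes of at least 10 RPM in 408. These had all values above 0 and a mean under 500 RPM, and Csa3G829190 was the 1 member among them. In the other 22 the higher 409 replicate was a median of 4.31 times the lower, and the higher 408 replicate a median of 1.69 times the lower. The replicates of Csa3G829190 differed by factors of 1.153 in 408 and 1.05 in 409. The 22 genes were not matched to Csa3G829190 by their level in 409. Counting error rises as that level falls, and its part in this contrast was not tested.

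**Figure D2:**
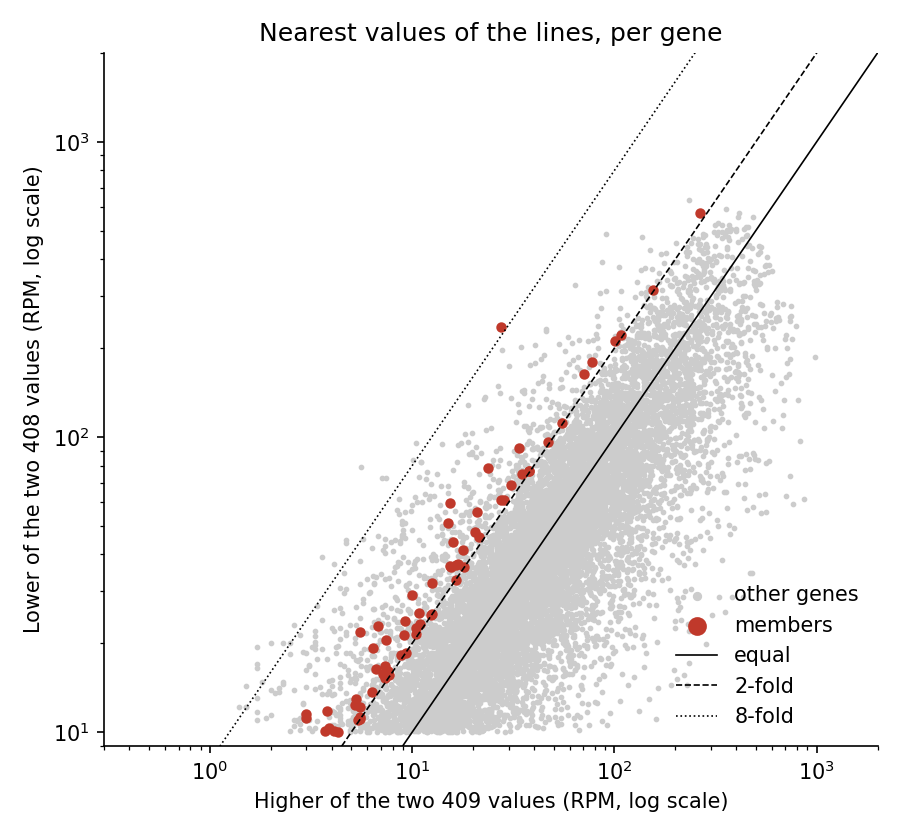
Lower of the 408 values against higher of the 409 values in RPM (both axes log scale) for genes with at least 10 RPM in both 408 libraries, with the 66 members in red and lines at equal level, 2-fold and 8-fold. Most members lie just above the 2-fold line, and a single red point, Csa3G829190 at a ratio of 8.57, lies above the 8-fold line.

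The genes around Csa3G829190 differed from it in direction or in replicate spread. In IDs of this form the digit after Csa is read as the chromosome and the number after G as the order along it, which places Csa3G829190 on chromosome 3. The listed gene just before it measured 20.2 and 15.4 RPM in 408 and 30.8 and 29.8 RPM in 409 and was lower in 408 (log2 fold change -0.75, limma adjusted p = 0.0437). The listed gene just after it measured 33.6 and 44.9 RPM in 408 and 26.8 and 22.4 RPM in 409, a log2 fold change of 0.64 that did not pass the threshold (limma adjusted p = 0.0684). The gene 2 places before it was higher in 408, at 46.3 and 48.9 RPM against 17.2 and 5.9 RPM (log2 fold change 2.12, limma adjusted p = 0.0359), but its 409 replicates were far apart and it was no member. The other 7 of the 10 nearest listed genes had log2 fold changes of -0.81 to -0.09, of which the lowest passed the threshold (limma adjusted p = 0.0438).

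The member with the most reads was Csa1G505400 of chromosome 1. It measured 574.9 and 710.9 RPM in the 408 libraries, against 265.8 and 216.0 RPM in those of 409. The highest value was in 408 replicate 2 and the lowest in 409 replicate 2, and the replicate ratios of 1.24 and 1.23 were close to the limit. The mean was 643 ± 96.2 RPM for 408 and 241 ± 35.2 RPM for 409 (SD, 2 libraries each), a ratio of 2.67, and the nearest ratio was 2.16. The log2 fold change was 1.41 and ran from 1.26 to 1.56 when any 1 library was left out. The listed gene just before Csa1G505400 was at 74.5 to 104.4 RPM and did not pass the threshold (limma adjusted p = 0.137), and the one just after it, at 0.4 to 0.7 RPM, was below the filter for testing.

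After Csa3G829190, 9 genes had a nearest ratio of 3 or more, and they came from 5 chromosomes. The gene ranked 2, of chromosome 2, measured 21.8 and 27.2 RPM in 408 and 4.4 and 5.5 RPM in 409. Its farthest ratio of 6.18 was the widest after that of Csa3G829190. The gene ranked 3, of chromosome 7, measured 59.6 and 69.5 RPM in 408 and 15.3 and 14.5 RPM in 409. The genes ranked 4 and 5, both of chromosome 6, had nearly the same values. The first of them measured 11.5 and 12.5 RPM in 408 against 2.8 and 3.0 RPM in 409, and the other 11.2 and 12.1 RPM against 2.6 and 3.0 RPM. Their 409 values correspond to about 36 to 39 reads in a library.

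The gene ranked 6 went against the usual order of the 408 libraries. It belongs to chromosome 3 and measured 58.2 and 51.1 RPM in 408 and 15 and 12.6 RPM in 409. The gene ranked 7, of chromosome 6, measured 22.9 and 28.0 RPM against 6.8 and 6.3 RPM. The gene ranked 8, of chromosome 1, measured 78.4 and 89.2 RPM against 23.7 and 19.4 RPM, and like the gene ranked 7 it was highest in 408 replicate 2 and lowest in 409 replicate 2. The gene ranked 9, of chromosome 7, measured 11.8 and 12.7 RPM in 408 and 3.8 RPM in both 409 libraries. The gene ranked 10, of chromosome 6, measured 19.3 and 22.7 RPM against 6.4 and 5.5 RPM.

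Behind Csa1G505400 in reads came genes whose ratios lay close to the limit. A chromosome 6 gene measured 313.7 and 367.6 RPM in 408 and 154.4 and 135.0 RPM in 409, a nearest ratio of 2.03. A pair of chromosome 7 genes followed. One measured 222.2 and 265.1 RPM in 408 and 87.0 and 107.3 RPM in 409, with 409 replicate 2 the higher. The other measured 210.7 and 255.5 RPM in 408 and 100.6 and 96.9 RPM in 409. With Csa3G829190 and a pair of adjacent chromosome 5 genes, these made up the 7 members with a mean of at least 100 RPM. Of these 7 genes, Csa3G829190 alone had a nearest ratio above 2.31.

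The share of replicate-stable genes fell as the lines stood farther apart. It was taken over genes with all values above 0 and a mean under 500 RPM. Among genes at 10 RPM or more in 408 with a nearest ratio of 1 to below 1.2, 1307 of 1775 had replicates within 25% in both lines, or 73.6%. The share was 52.7% from 1.2 to below 1.5 and 27.4% from 1.5 to below 2. Within the range of the members it was 10.9% from 2 to below 3, with 56 of 516 genes, and 6% from 3 to below 4, with 9 of 150. At 4 or more it was 0.515%, with Csa3G829190 the 1 stable gene of 194. Toward the short-fruited line the shares were 71.2%, 51.0%, 26.7%, 9.58% and 4.88% in the same classes. At 4 or more it was 3 of 24 genes, or 12.5%, a contrast with 1 of 194 that rests on 3 genes and was not tested. The counting error of a gene rises as its lower level falls, and its part in these shares was not tested.

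**Figure D3:**
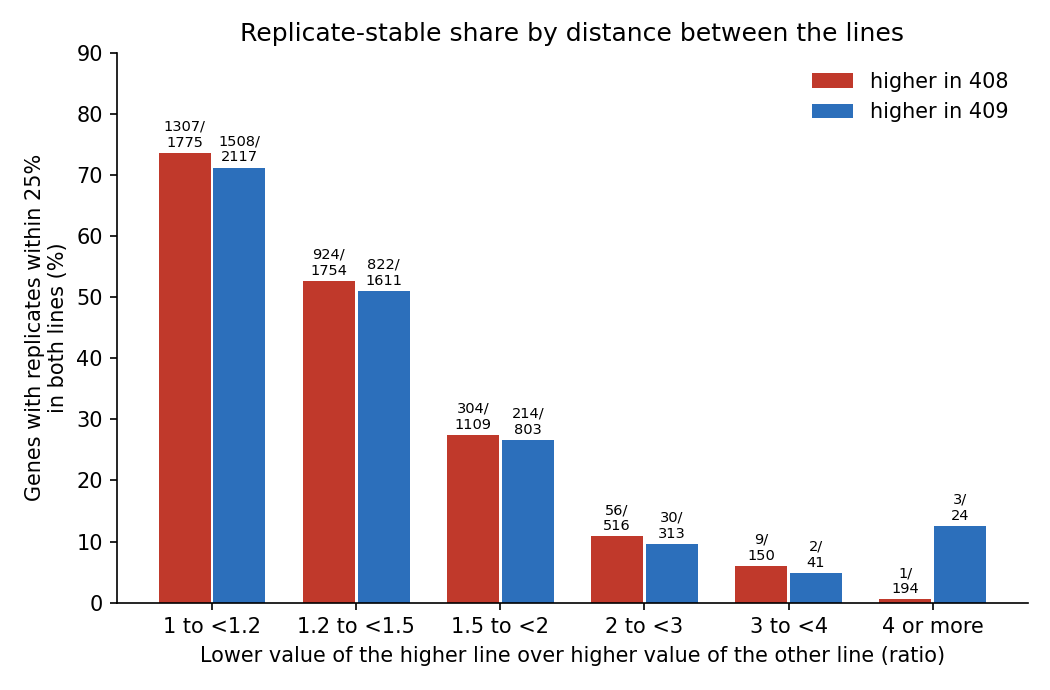
Percentage of genes with replicates within 25% in both lines, by the ratio of the lower value of the higher line to the higher value of the other line, for genes whose values in the higher line are 10 RPM or more; numbers above the bars are stable genes over all genes of the class. Each gene has all values above 0 and a mean under 500 RPM. The share falls from 73.6% in the lowest class to 0.515% in the highest for genes higher in 408. For genes higher in 409 it falls from 71.2% to 4.88% before 12.5% in a class of 24 genes.

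Although the replicate differences of the members were small, in line 408 they mostly had the same sign. Of the 66 genes, 55 had their higher 408 value in replicate 2, 10 had it in replicate 1 and 1 had equal values. That was 83.3%. The same order was read in replicate-stable genes higher in 408 by less than 2-fold. It held in 264 of 304, or 86.8%, for a nearest ratio of 1.5 to below 2. For 1.2 to below 1.5 it held in 755 of 924, or 81.7%, and for 1 to below 1.2 in 913 of 1307, or 69.9%. Over all 6301 other replicate-stable genes at 10 RPM or more in 408, of either direction, the share was 46.4%. All these genes had values above 0 and a mean under 500 RPM. The median member stood in 408 replicate 2 at 1.13 times its replicate 1 level (interquartile range over genes 1.05 to 1.21). After median-of-ratios and quantile scaling 56 and 57 of the 66 genes had their higher 408 value in replicate 2. Genes read from the same library share its depth and its pool and are not independent, so these shares describe the 4 libraries.

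In line 409 the order depended on the scaling. At the deposited scaling 48 of the 66 genes had their lower 409 value in replicate 2, or 72.7%, and the median member stood at 0.925 of its replicate 1 level. Of replicate-stable genes higher in 408 by less than 2-fold, 79.6% had this order for a nearest ratio of 1.5 to below 2. The share was 79.8% for 1.2 to below 1.5 and 71.8% for 1 to below 1.2. Over all other replicate-stable genes, of either direction, it was 60.1%. After median-of-ratios scaling this order held for 35 members, and after quantile normalization for 21. The median ratio of replicate 2 to replicate 1 then became 0.983 and 1.06. At the deposited scaling 42 members, or 63.6%, were highest in 408 replicate 2 and lowest in 409 replicate 2, and after the rescalings 30 and 18 were. The opposite order in both lines was found in 5 members. Replicate-stable genes higher in 408 by less than 2-fold had the order of the 42 at shares that varied with the nearest ratio. The share was 70.7% for 1.5 to below 2, 67.2% for 1.2 to below 1.5 and 51.1% for 1 to below 1.2. Over all other replicate-stable genes, of either direction, replicate 2 was higher in 408 and lower in 409 in 33.4%.

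Genes that failed the limit on replicates had larger replicate differences, mostly of the same sign. Of the 794 genes that met the 2-fold and abundance limits but not that on replicates, 754 were highest in 408 replicate 2 and lowest in 409 replicate 2. Their median ratio of replicate 2 to replicate 1 was 1.44 in line 408 and 0.510 in line 409, sizes that the choice itself keeps out of the members. With replicates allowed to differ by up to 50%, 218 genes qualified, and 91.3% had their higher 408 value in replicate 2. With at most 15%, 22 qualified, of which 15, or 68.2%, had it there. A steep fall from 408 replicate 1 to 409 replicate 2, of at least 10-fold from 20 RPM or more, was found in 163 genes, and 0 of the 66 members were among them. Csa3G829190 came nearest, at 8.99-fold between these libraries, and the next member was at 4.62-fold.

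**Figure D4:**
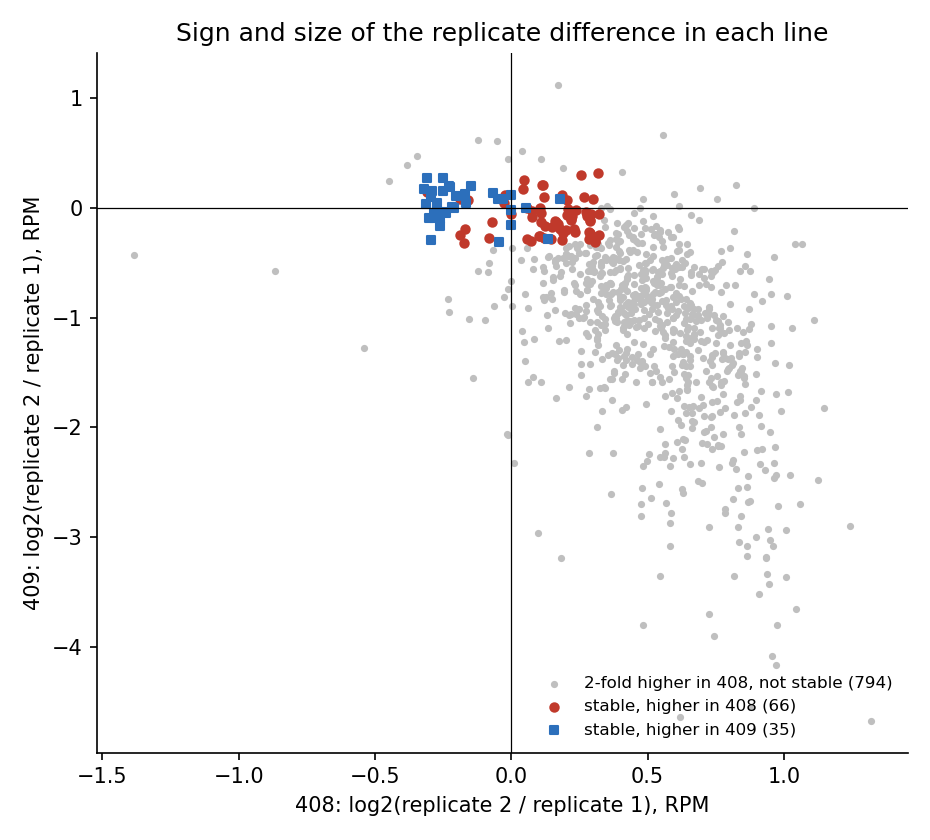
log2 ratio of replicate 2 to replicate 1 in line 408 (x axis) and in line 409 (y axis), from RPM, for the 66 members (red), the 35 genes of the mirrored choice (blue squares) and the 794 genes at least 2-fold higher in 408 that were not replicate-stable (grey). Members lie near 0 by choice but mostly to the right of it, with 55 of 66 higher in 408 replicate 2, and the grey points extend far to the lower right.

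Counting error was of the size of many of these replicate differences. The lowest 409 value of a member corresponds to about 36 reads and the lowest 408 value to about 125 reads. In the library with fewer reads the counting error, 1 over the square root of the reads, was a median of 5.63% in 408 (1.18% to 8.94%) and 8.95% in 409 (1.94% to 16.7%). The replicates lay within 2 counting standard deviations of each other in 36 of 66 genes in 408 and in 57 of 66 in 409. In 27 of the 30 genes beyond that in 408, replicate 2 was the higher. In 7 of the 9 such genes in 409, replicate 2 was the lower. A gene with few reads may thus have met or missed the limit of 25% by counting error.

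The mirrored choice, genes 2-fold higher in the short-fruited line with level replicates, mostly showed the opposite sign in line 408. Of its 35 genes, 29 had their lower 408 value in replicate 2 and 3 had their higher value there, with a median ratio of replicate 2 to replicate 1 of 0.853. In 409, 20 were higher and 13 lower in replicate 2, at a median ratio of 1.03. Their nearest ratios had a median of 2.37 and a highest value of 5.65, against 2.27 and 8.57 for the members, and their highest mean was 156 RPM against 441.9 RPM. In both choices 408 replicate 2 lay farther from line 409 than 408 replicate 1 did in most genes. The difference between the choices was not tested.

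The members were spread over all 7 chromosomes. Chromosome 6 held 18 of the 66 genes, or 27.3%, and 17.1% of the genes that could have been chosen. Those had both 408 values at 10 RPM or more, all values above 0 and a mean under 500 RPM. Of the 860 genes that met the 2-fold limit, chromosome 6 held 19.7%. Chromosome 7 held 10 members, or 15.2% against 9.72%, and chromosome 5 held 10, or 15.2% against 13.1%. Chromosome 4 held 2, or 3.03% against 12.1%. Chromosomes 1, 2 and 3 held 6, 9 and 11 members. Chromosome 6 also held 10 of the 35 genes of the mirrored choice, or 28.6%. The share of chromosome 6 among the members depended on the choice. It was 36.8%, or 7 of 19 genes, at 2.5-fold or more and 30.2% at 20 RPM or more, 17.0% when replicates could differ by up to 50% and 13.3% when the rule was applied after quantile normalization.

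Some members lay side by side. A second member was found within 5 listed genes on either side for 9 of the 66 genes, or 13.6%, where 3.14% of all listed genes had a member that near. The share was 0% of 22 genes with replicates within 15% and 0% of 19 genes at 2.5-fold or more. It was 6.67% of 45 genes when the rule was applied after quantile normalization. The share over all listed genes was not computed for these smaller sets. For the mirrored choice the share was 2 of 35 genes, or 5.71%, against 1.69%. The 3.14% and 1.69% are over all listed genes, including those too low to be chosen. Each gene of a group is counted, so the 9 members lie in fewer separate places. A pair on chromosome 5 was directly adjacent among the listed genes. One of them measured 178.9 and 208.3 RPM in 408 and 77.9 and 72.0 RPM in 409, and its neighbour 166.7 and 164.0 RPM against 65.6 and 71.1 RPM. Their nearest ratios, 2.30 and 2.31, were close, but the order of the replicates differed between them in both lines. Whether they are near-identical copies that share reads was not analysed here.

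The densest stretch was on chromosome 6, with 5 members among 100 listed genes, a stretch picked out after the values were seen. Within it 3 members lay among 5 consecutive listed genes. The first measured 76.8 and 83.4 RPM in 408 and 37.9 and 31.3 RPM in 409, the middle one 41.5 and 42.8 RPM against 15.9 and 17.9 RPM, and the last, ranked 10, was given above. Their nearest ratios were 2.03, 2.32 and 3.02. The 1 tested gene between them lay in the other direction, at a log2 fold change of -0.54, and was not called by limma. The other 2 members of the stretch lay among 6 consecutive listed genes. One was the gene ranked 7, and the other measured 32.9 and 36.9 RPM in 408 against 16.4 and 15 RPM in 409.

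A chromosome 7 stretch of 41 listed genes held 3 members, among them the pair of abundant chromosome 7 genes. The other measured 16.7 and 20.5 RPM in 408 and 7.3 and 6.1 RPM in 409. The 31 tested non-members in this stretch had log2 fold changes from -1.30 to 1.76 with a median of 0.32, and 7 were called higher and 2 lower by limma. On chromosome 5, a further pair among 4 consecutive listed genes measured 11.0 and 11.6 RPM against 5.4 and 5.3 RPM, and 13.0 and 14.1 RPM against 4.6 and 5.3 RPM. The 2 tested genes between that pair had log2 fold changes of -0.04 and 0.12.

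**Figure D5:**
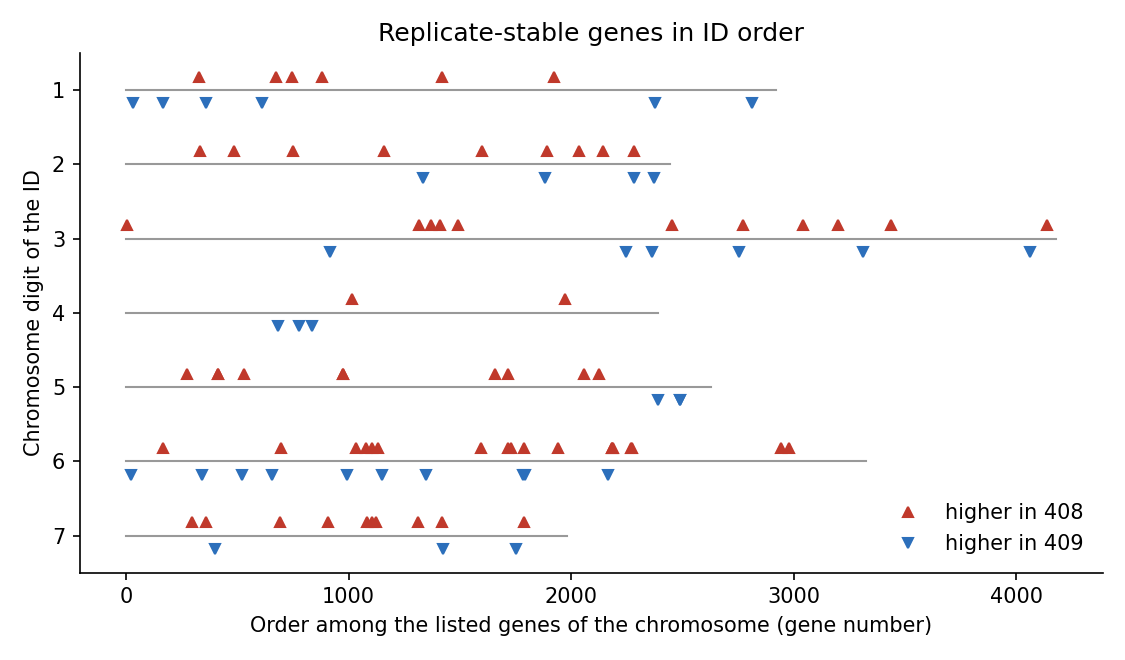
Place of the 66 members (red, above each line) and of the 35 genes of the mirrored choice (blue, below) in the order of the listed genes of each chromosome, read from the IDs; each grey line is 1 chromosome. The genes are scattered over all 7 chromosomes, with 18 members on chromosome 6 and 2 on chromosome 4.

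Most members had no other member nearby. The median distance from a member to the next on its chromosome was 150 listed genes, and the longest was 1311. The 541 tested non-members within 5 listed genes of a member had a median log2 fold change of 0.14, against 0.06 over all tested genes. Of these, 114, or 21.1%, were called higher in 408 by limma, against 17.1% of all tested genes, and 74, or 13.7%, were called lower, against 10.1%.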

How the data were processed

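The deposited table holds RPM values, computed by the authors and given to 1 decimal, for 20000 gene IDs in 4 libraries. Each column sums to 1000000 within rounding, and 0 columns were left unused. The labels' protocols describe poly(A) selection and a kit that marks strand. TopHat was the aligner, per the submitters' processing notes. The build, the read counter and the use of strand were not given in the sources used here. Overlapping genes and near-identical copies may therefore share reads.

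The members and the settings were chosen with earlier results of these data known. The rule was applied to the values as deposited. Of the listed IDs, 0 matched a reference table of 23999 genes (assembly Cucumber_9930_V3), so gene lists by product name were not used, and 2 members are given by ID: the one with the largest nearest ratio and the one with the highest mean.

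Depth was inferred by matching whole-read steps to rounded values up to 30 RPM, and this was tested on simulated libraries. One read is worth less than a rounding step, so a count test on recovered reads was not possible. Counting errors use reads approximated from RPM and cover counting only.

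The main model was limma 3.58.1 (R 4.3.3) on log2(RPM + 1) with a mean-variance trend and no covariates. It covered the 17391 genes that reached 1 RPM in 2 or more libraries, and p-values were Benjamini-Hochberg adjusted over all of them. It was tested on simulated reads with a replicate spread drawn independently for each gene and library. In the libraries here the deviations of same-numbered libraries correlated at -0.48 across genes. The simulation lacks that feature and cannot show how the model performs with it. The labels call the pools biological replicates. Alternatives were other pseudocounts, filters, scalings, blocks, left-out libraries and limits of the rule. Other steps used Python 3.11.15.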

Additional observations from a re-analysis of the deposited data

How the results depend on the processing

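The median log2 fold change of the members stayed within 1 replicate SD of 1.27 under all 13 other settings of the limma fit. Without a filter on low values limma called 0 of all genes and 0 of the members, with 8340 genes and all 66 members at an unadjusted p under 0.05. Leaving out 1 library gave 0 to 0 genes and 0 to 0 members, with 3974 to 7264 genes and all 66 members at an unadjusted p under 0.05. These fits have fewer samples. With the replicate number as a block, 1356 genes and 41 members were called. The number does not mark a shared batch in the labels, and deviations of same-numbered libraries correlated at -0.48 across genes. With the numbers crossed between the lines as a block, a setting chosen after the data were seen, 8605 genes and 66 members were called. Under the other 6 settings 4271 to 5420 genes and all 66 members were called.

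The number of members was 22 with replicates within 15%, 218 within 50%, 146 with 408 at least 75% above 409, 19 at least 2.5-fold above and 43 with at least 20 RPM. Applied after median-of-ratios scaling the rule gave 53 genes, 43 of them members, and after quantile normalization 45, of which 23 were members. The share with another member nearby was 0% with replicates within 15% and 0% with 408 at least 2.5-fold above 409. Counting only directly adjacent genes it was 3.03%, where 0.65% of all listed genes had a member directly adjacent. The settings for the replicate order were chosen after the data were seen. The share higher in 408 replicate 2 was 68.2% with replicates within 15%. The share lower in 409 replicate 2 was 53.0% after median-of-ratios scaling, 31.8% after quantile normalization, 59.1% with replicates within 15% and 86.2% within 50%. The causes were not tested. Counting error alone was up to 16.7% of a member's value in 409, and its part in the replicate ratios was not tested.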
